A study of Homo sapiens with 8 samples.

Results

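LNCaP is a human prostate adenocarcinoma cell line that responds to androgen. METTL3 is the catalytic subunit of the nuclear complex that places N6-methyladenosine (m6A) on messenger RNA, chiefly in long internal exons, around the stop codon and in the 3′ untranslated region. Proteins that read the mark shorten the life of many of the transcripts that carry it and alter the processing, export or translation of others. The comparison described here asks which transcripts stood higher or lower in LNCaP cells that express a hairpin against METTL3 than in cells that express a control hairpin.

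The knockdown line carried a METTL3 hairpin together with what the sample titles call a vector, and the control line carried a control hairpin with what the titles also call a vector. Lentivirus delivered both, puromycin (1 µg/ml) was used for selection, and the labels state neither what the vector holds, nor how many hairpins were used or their sequences, nor whether a line is a pool or a clone. Each line gave 2 RNA libraries, so 4 of the 8 libraries of the series enter the comparison. The other lines carried the METTL3 hairpin with a resistant wild-type METTL3 (wild-type rescue) or with a catalytically dead METTL3 (mutant rescue), and they enter only the shared estimate of spread and a few levels given for reference. Whether the libraries of one line stem from separate cultures is not stated in the labels, so the p-values measure the spread between these libraries, which may be technical.

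The 4 libraries held 15684881 to 17582518 counts over genes, and 15289 of 27140 genes had enough counts to be tested. Levels are CPM, each library scaled by the trimmed mean of M values (TMM). Libraries of a line differed little beyond counting noise, with chi-square values of 1.22 (knockdown cells) and 1.27 (control cells) for each degree of freedom. The 12 luminal prostate markers summed to 9301 and 9353 CPM in knockdown cells, against 11410 and 11350 CPM in control cells, and 1 of them was higher and 11 were lower. Of markers of other cells, 5 basal markers summed to 4.68 and 3.43 CPM in knockdown cells, against 4.42 and 3.78 CPM in control cells, and 1 of 3 tested was higher. The 7 neuroendocrine markers summed to 89.7 and 85.5 CPM, against 90.5 and 88.6 CPM in control cells, and 1 of 2 tested was lower. The 6 fibroblast markers were at 84.2 and 92.8 CPM, against 80.2 and 81.8 CPM in control cells, with COL1A1 and LUM higher of 4 tested and COL1A2 at 0 in all 4 libraries. The 4 endothelial markers were at 11.6 and 10.3 CPM, against 8.65 and 8.75 CPM in control cells, with VWF higher of 2 tested, and the 5 leukocyte markers at 18.2 and 18.7 CPM, against 26.6 and 23.8 CPM in control cells, with CD68, the 1 tested, lower and CD3E at 0 in all 4. The calls of COL1A1, LUM and VWF ended under DESeq2's Wald test (adjusted p = 0.0947, 0.0783 and 0.0648). In edgeR, COL1A1 also lost its call without control replicate 1 (adjusted p = 0.114), control replicate 2 (0.0526) or knockdown replicate 2 (0.473) and with the length trend taken out (0.0984), LUM without control replicate 1 (0.11) or knockdown replicate 2 (0.0718), and VWF without knockdown replicate 1 (0.11). The part of such cells in the results was not tested. In bulk RNA, fewer cells that express a gene and less of its RNA per cell cannot be told apart.

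METTL3 itself had 26.2 and 31.3 CPM in knockdown cells, against 68.4 and 68.5 CPM in control cells. The groups did not overlap, and the fall of 1.26 on the log2 scale (SE 0.054) passed edgeR's quasi-likelihood test with Benjamini-Hochberg adjustment (adjusted p = 1.5e-48). At an adjusted p under 0.05 in that test, 7337 of the 15289 genes were called, which is 48.0%. Of these, 3506 (22.9%) were higher in knockdown cells and 3831 (25.1%) were lower. The median size of a called difference was 0.294 on the log2 scale, and 28.4% of calls were under 0.2. A call joined to at least a doubling was made for 326 genes (2.13%), and a call joined to at least a halving for 188 genes (1.23%). The 2 lines did not overlap in their libraries for 72.5% of all tested genes. Below, rose and fell are used of genes called in this test.

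The 10 largest gains in CPM included transcripts of several very long genes for cytoplasmic proteins. SESN3, a stress-induced regulator of nutrient signalling, had 1029 and 1016 CPM in knockdown cells, against 625 and 616 CPM in control cells. MAP1B, a protein that binds and stabilises microtubules, had 432 and 444 CPM, against 171 and 168 CPM in control cells. MYCBP2, a very large ubiquitin ligase known from axons, had 574 and 578 CPM, against 337 and 329 CPM in control cells. None of these groups overlapped, and the log2 fold changes were 0.72 (SE 0.02), 1.37 (SE 0.026) and 0.79 (SE 0.022) in that order. ASPH, an aspartate hydroxylase of the endoplasmic reticulum, and ARFGEF3, a protein of secretory granules, were also among the 10 largest gains, with log2 fold changes of 0.47 and 0.29.

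The 10 largest losses made up a larger part of the whole than the 10 largest gains did. Higher calls gained 50210 CPM in all and lower calls lost 72190 CPM, and the 10 largest losses made up 21.4% of the loss while the 10 largest gains made up 5.66% of the gain. RNR2 and RNR1, the ribosomal RNAs of the mitochondrion, were both among these losses: RNR2 had 22258 and 22752 CPM in knockdown cells, against 29789 and 30156 CPM in control cells, and RNR1 had 1975 and 2012 CPM, against 3005 and 3047 CPM in control cells. Their groups did not overlap, with log2 fold changes of -0.41 (SE 0.017) and -0.60 (SE 0.019). The libraries were made with a messenger RNA kit, and how far ribosomal RNA entered each of them was not tested. The share of the largest losses depends in large part on RNR2 and RNR1 and was not computed without them. Neither RNR2 nor RNR1 was among the genes with a GC value used below. PEG3, an imprinted zinc-finger gene expressed from the paternal allele, had 1083 and 1090.1 CPM in knockdown cells, against 1724 and 1720.1 CPM in control cells, and fell by 0.66 on the log2 scale. The cytoplasmic actins ACTB and ACTG1 fell by 0.35 and 0.46.

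The share of genes that rose or fell followed base composition. A GC value was available for 13252 tested genes with a GENCODE v29 transcript of the same name. Where the transcript had at most 40% GC (1960 genes), 37.4% were higher and 16.4% lower in knockdown cells. Where it had over 60% GC (2238 genes), 9.29% were higher and 42.0% lower, and the 4 classes between followed in order. Spearman's rho between GC and the log2 fold change across these genes was -0.29, a description across genes that share the same libraries and are not independent replicates. Each library kept the sign of its line: relative to the mean of all 8 libraries, genes over 60% GC had median log2 deviations of -0.097 and -0.072 in knockdown libraries and of 0.044 and 0.046 in control libraries.

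The 2 rescue lines did not share a sign, with deviations of the same GC-rich genes of -0.029 and -0.0070 in the wild-type rescue and 0.078 and 0.056 in the mutant rescue. What moved with base composition in the libraries was not tested, and each gene list below was computed again after a smooth GC trend had been taken out of every library, a step chosen after seeing the data. Of the 7337 calls, 6806 could be tested that way, 5718 kept their call and direction, and 116 changed sign.

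**Figure D1:**
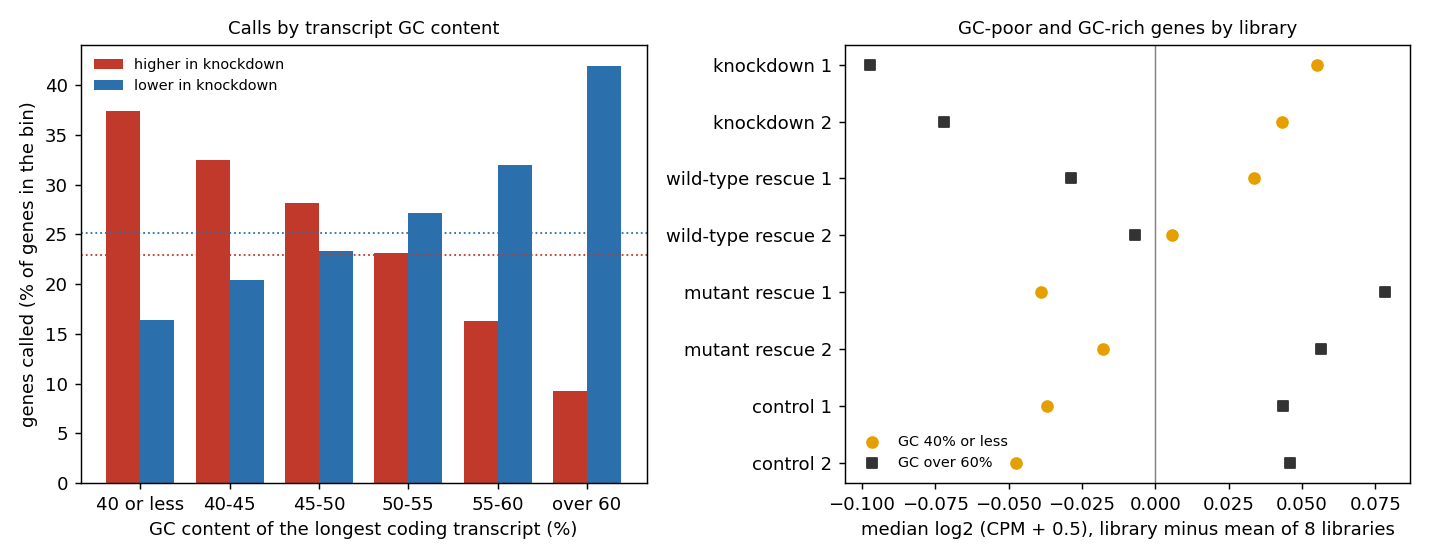
Transcript GC content and the knockdown difference. The left panel gives, for 6 classes of GC content of the longest coding transcript, the percentage of genes called higher and lower in METTL3 knockdown cells, with dotted lines at the shares over all tested genes; the share called higher is 37.4% at 40% GC or less and 9.29% over 60% GC, while the share called lower is 16.4% and 42.0%. The right panel gives the median log2 deviation of GC-poor and GC-rich genes in each library from the mean of the 8 libraries, with GC-rich genes at -0.097 and -0.072 in knockdown libraries and at 0.044 and 0.046 in control libraries.

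Calls also differed with length and chromosome. Among genes with a GC value, those with a deposited length over 6 kb were called higher in 39.8% of cases and lower in 21.4%. With the GC trend taken out the shares were 37.4% and 24.4%. Genes with a 3′ untranslated region over 4000 bases were higher in 38.9% and lower in 20.1%, and in 33.8% and 26.4% with the GC trend taken out, while those with 250 bases or fewer were higher in 14.3% and lower in 28.99%, and in 20.4% and 21.3% with it taken out. For GGACT, a favoured m6A sequence, the direction turned with the measure and with the GC step. With over 2 copies per kb of transcript, 16.7% were higher and 29.4% lower, but 25.4% and 21.3% with the GC trend taken out. With over 10 copies in all, where the median transcript had 9744 bases, 39.6% were higher and 20.9% lower, and 42.65% and 20.5% with the trend taken out. On chromosome 19, 11.1% of genes with a GC value were higher and 37.15% lower, which became 19.3% and 25.4% with the GC trend taken out. On chromosome 16 the shares were 13.7% and 38.45%, and 20.4% and 31.4% with the trend taken out. Chromosome 4 leaned the other way, with 35.15% higher and 19.9% lower, and 29.9% and 24.7% with the trend taken out.

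Cadherins and protocadherins formed the group with the highest median among the lists examined with at least 20 tested members. The clustered protocadherins lie in tandem arrays on chromosome 5, are known for giving single neurons distinct surface identities, and are each transcribed from a promoter of their own that usually holds a short conserved element with the letters CGCT. Of 54 tested members of the wider family, 27 rose, 3 fell and 16 at least doubled, against 22.9%, 25.1% and 2.13% of all tested genes, and the median log2 fold change was 0.63 against -0.011 over all tested genes. With the GC trend taken out, 29 rose and 3 fell, while DESeq2's Wald test called 17 higher and 1 lower, and the members with a mean of at least 10 CPM gave 4 and 1. The sequences below are the stretches around that element near the start sites of 3 beta and 2 gamma genes, from the RefSeq promoter table (GRCh38.p14, plus strand, 5′ to 3′), with the searched letters in capitals; they were picked after seeing the data to show the element in promoters of genes with large and small rises.
PCDHB14 at chr5:141223231-141223327: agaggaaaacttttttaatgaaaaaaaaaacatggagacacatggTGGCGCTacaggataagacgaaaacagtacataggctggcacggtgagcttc
PCDHB16 at chr5:141182278-141182374: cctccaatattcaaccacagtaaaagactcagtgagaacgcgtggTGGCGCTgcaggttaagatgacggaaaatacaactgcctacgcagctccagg
PCDHB5 at chr5:141135147-141135243: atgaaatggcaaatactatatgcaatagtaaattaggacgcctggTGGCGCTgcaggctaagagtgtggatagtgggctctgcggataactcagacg
PCDHGA7 at chr5:141382620-141382716: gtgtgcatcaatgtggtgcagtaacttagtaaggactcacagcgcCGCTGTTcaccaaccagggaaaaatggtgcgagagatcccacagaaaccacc
PCDHGA2 at chr5:141338674-141338770: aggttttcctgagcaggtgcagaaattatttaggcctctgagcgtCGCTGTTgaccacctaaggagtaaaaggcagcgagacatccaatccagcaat

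The beta genes are single exons with no shared part. PCDHB14 had 4.23 and 4.38 CPM in knockdown cells, against 0.821 and 1.95 CPM in control cells, and PCDHB16 had 3.72 and 2.92 CPM, against 1.45 and 0.756 CPM in control cells. The groups did not overlap for either gene, and both rose by about the same amount, 1.63 (SE 0.24) and 1.59 (SE 0.27) on the log2 scale. PCDHB5 had 28.4 and 25.9 CPM in knockdown cells, against 24.6 and 23.6 CPM in control cells, and rose by 0.18 (SE 0.076). The call of PCDHB5 ended under DESeq2's Wald test (adjusted p = 0.198) and without control replicate 1 (edgeR adjusted p = 0.0782), control replicate 2 (0.224) or knockdown replicate 1 (0.39). Of 16 beta genes, 14 could be tested, of which 11 rose, 0 fell and 3 were not called. The summed level of the 16 was 69.9 and 64.7 CPM in knockdown cells, against 48.0 and 46.95 CPM in control cells.

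The gamma genes share constant 3′ exons, and how the counts divide reads of those exons is not stated, so single gamma values are uncertain. PCDHGA7 had 3.39 and 3.88 CPM in knockdown cells, against 1.20 and 1.45 CPM in control cells, and PCDHGB4 had 2.54 and 2.03 CPM, against 0.758 and 0.693 CPM in control cells. Both groups stood apart, with log2 fold changes of 1.44 (SE 0.26) and 1.65 (SE 0.34). PCDHGC3, the C-type gene next to the constant exons, had 19.9 and 20.8 CPM in knockdown cells, against 21.4 and 18.6 CPM in control cells; the groups overlapped and it was not called. Of 22 gamma genes, 21 were tested, 11 rose and 0 fell, and their sum was 76.8 and 77.6 CPM in knockdown cells, against 54.6 and 52.9 CPM in control cells. None of the 15 alpha genes passed the filter on low counts, and together they held 74 and 59 counts in knockdown cells, against 12 and 7 counts in control cells.

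The beta sequence TGGCGCT, searched on both strands of 300 bases around the start site, was found in 12 of the 12 beta promoters in the table, in 3 of 20 gamma promoters and in 6.13% of the 11109 promoters of tested genes. The letters CGCTGTT, which overlap the first motif in their CGCT core, were found in 13 of 20 gamma promoters, in 1 of 12 beta promoters and in 3.03% of all. A match is a description of the letters only. Outside the clusters the family was mixed: CDH1, the epithelial cadherin that is its most abundant member per length, had 796 and 803 CPM in knockdown cells, against 872 and 867 CPM in control cells, and fell by 0.12 on the log2 scale.

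**Figure D2:**
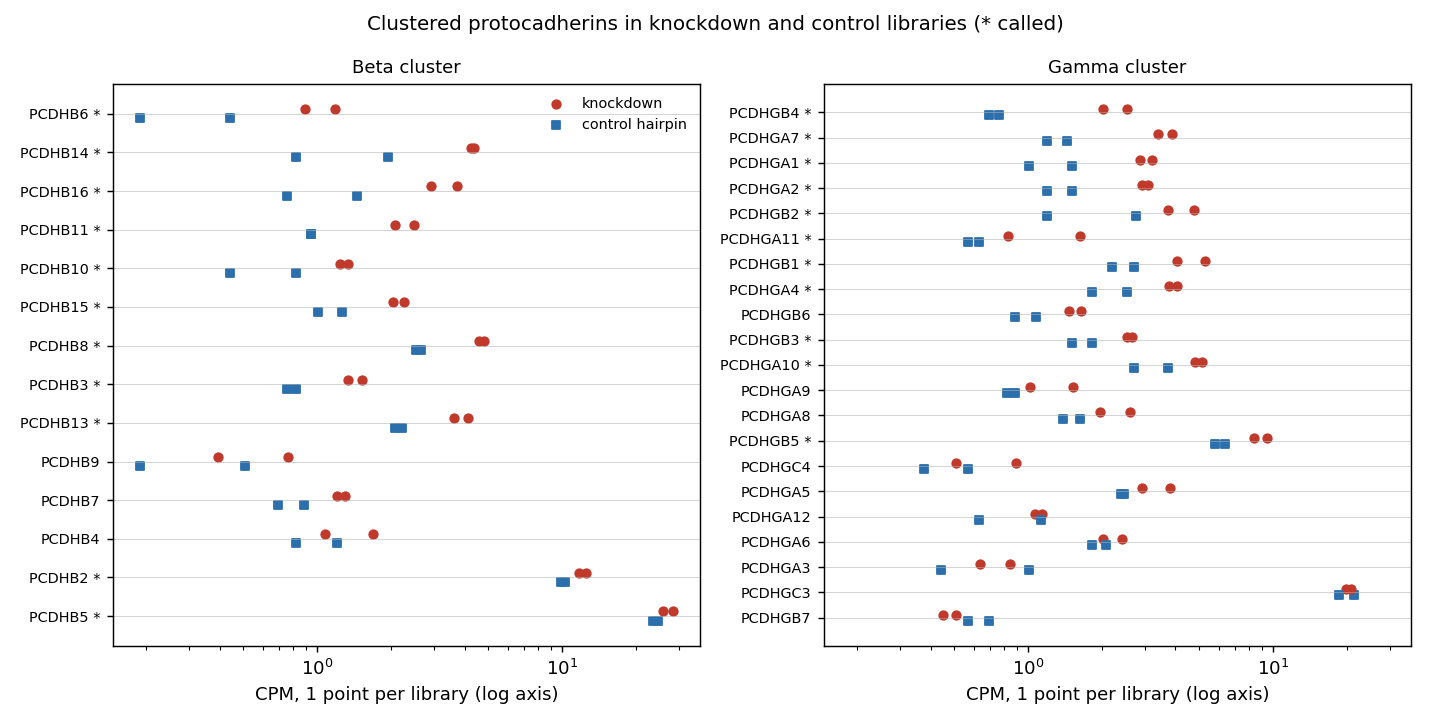
Clustered protocadherins by library. Each point is the level of 1 tested beta or gamma protocadherin gene in CPM, on a log axis, in 1 library of METTL3 knockdown (circles) or control (squares) LNCaP cells, and a star marks a called gene; most genes lie higher in the knockdown libraries, and PCDHGC3 lies at 19.9 and 20.8 CPM in knockdown cells and at 21.4 and 18.6 CPM in control cells.

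Runs of neighbouring genes that were called in the same direction were then sought along the chromosomes, using only the order of genes in RefSeq, and were chosen after seeing their values. There were 33 runs of at least 6 tested neighbours, 18 higher and 15 lower. A run on chromosome 4 holds the serine protease gene TMPRSS11E, 5 UGT2B genes and ODAM, with a median log2 fold change of 1.82, and all 7 kept their call with the GC trend taken out. UGT2B enzymes attach glucuronic acid to steroids, and UGT2B15 and UGT2B17 inactivate androgens. UGT2B17 had 68.2 and 69.96 CPM in knockdown cells, against 22.9 and 21.5 CPM in control cells, and TMPRSS11E had 15.1 and 14.7 CPM, against 3.47 and 4.09 CPM in control cells. Neither group overlapped, and the log2 fold changes were 1.64 (SE 0.06) and 1.98 (SE 0.14). The less abundant UGT2B10, UGT2B11 and UGT2B28 rose by 2.03, 0.85 and 1.26. The UGT2B genes are close copies, and how reads that match several of them were counted is not stated, so the rise of a single copy is uncertain.

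A run on chromosome 7 goes from ST7 to LSM8, with a median log2 fold change of 1.36. ST7, a candidate tumour suppressor, had 78.2 and 79.4 CPM in knockdown cells, against 35.3 and 33.3 CPM in control cells, with no overlap and a log2 fold change of 1.20 (SE 0.053). CTTNBP2, a cortactin-binding protein of neurons, had 3.44 and 3.05 CPM, against 0.948 and 0.441 CPM in control cells, and CFTR, the epithelial chloride channel, had 1.02 and 1.21 CPM, against 0.253 and 0.378 CPM in control cells. Both rose, by 2.22 (SE 0.31) and 1.79 (SE 0.49), from very few reads. Noncoding genes overlap ST7, and how reads of overlapping genes were counted is not stated, so its level is uncertain to that extent. LSM8, a subunit of the ring that binds U6 RNA, rose by 0.26.

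The longest run, of 13 genes on chromosome 5 that begins with SLF1, had a median of 0.42 and 12 members kept their call with the GC trend taken out. It holds MCTP1, a calcium-binding membrane protein, at 8.97 and 8.32 CPM in knockdown cells, against 1.39 and 1.89 CPM in control cells, and the aminopeptidases ERAP1, ERAP2 and LNPEP, which trim peptides for antigen presentation or cut peptide hormones. The groups of MCTP1 stood apart (log2 fold change 2.40, SE 0.19), and the 3 aminopeptidases rose by 0.37, 0.40 and 0.43. The call of ERAP2 ended under DESeq2 (adjusted p = 0.0724) and without knockdown replicate 1 (edgeR adjusted p = 0.355) or control replicate 2 (0.0563). On chromosome 3 a run of 10 genes from NFKBIZ to DZIP3 included ALCAM, an adhesion molecule, at 285 and 276 CPM in knockdown cells, against 134 and 144 CPM in control cells. ALCAM groups did not overlap, and it rose by 1.02 on the log2 scale.

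The median GC content of the genes in a run was 42.4% to 66.6% in the lower runs and 37.4% to 48.1% in the higher runs. In the run on chromosome 7 that begins with SLC12A9 and holds UFSP1, a protease of the UFM1 modifier, the median was -0.93 at a median GC of 63.99%, and 4 of 6 genes kept their call with the GC trend taken out. SLC12A9 itself, at -0.13, did not keep it and had 0.023 there. An exception was the run on chromosome 1 from PRKACB to GNG5, with a median GC of 42.4% and a median of -0.49, where all 5 genes with a GC value kept their call. PRKACB, a catalytic subunit of protein kinase A, had 425 and 436 CPM in knockdown cells, against 618 and 621 CPM in control cells. The groups did not overlap, and it fell by 0.53 (SE 0.022).

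**Figure D3:**
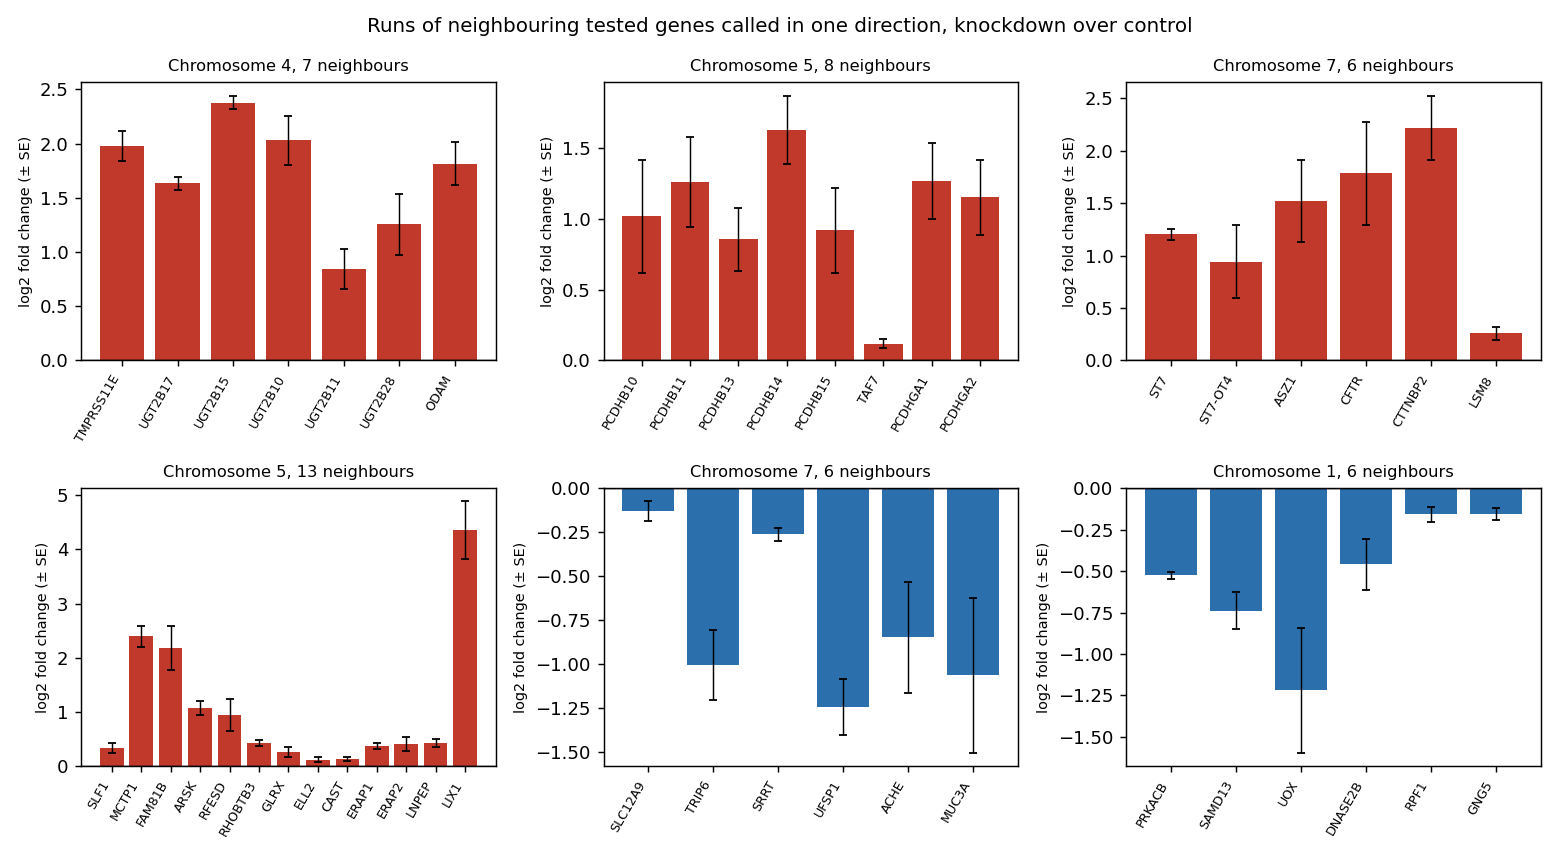
Runs of neighbouring genes called in the same direction. Each bar is a gene's log2 fold change, METTL3 knockdown over control, with its standard error as a whisker, in the order of the genes along the chromosome; the 4 runs that begin with TMPRSS11E, PCDHB10, ST7 and SLF1 lie above 0, the 2 that begin with SLC12A9 and PRKACB below 0, and the bar of LIX1 rests on 1 and 2 counts in the control libraries.

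Among the machines of membrane traffic, the vacuolar proton pump stood higher as a group. The pump acidifies lysosomes, endosomes and secretory vesicles, with a V1 sector that splits ATP and a V0 sector in the membrane. Of 22 tested genes, 14 rose and 0 fell, with a median of 0.21, and with the GC trend taken out 15 rose and 0 fell. ATP6V1A, the catalytic subunit of V1, had 293 and 297 CPM in knockdown cells, against 200.2 and 209 CPM in control cells. ATP6V1G1 of the stalk had 106 and 107 CPM, against 74.7 and 77.7 CPM in control cells, and ATP6V0C, the proteolipid of the membrane ring and the most abundant member per length, had 298 and 306 CPM, against 268 and 264 CPM in control cells. No group overlapped, and the log2 fold changes were 0.53 (SE 0.027), 0.48 (SE 0.042) and 0.18 (SE 0.026). The 8 members that were not called ranged from -0.76 in ATP6V1B1 to 0.21 in ATP6V1C2.

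Rab GTPases, which mark vesicle identity, and their regulators were higher in 43 and lower in 18 of 106 tested genes, with a median of 0.099. DENND1B, an exchange factor for RAB35, had 50.04 and 46.4 CPM in knockdown cells, against 26.98 and 28.9 CPM in control cells, and RAB8A, which directs vesicles to the plasma membrane and the cilium, had 59.1 and 59.6 CPM, against 79.7 and 81.4 CPM in control cells. The groups of both stood apart, DENND1B rising by 0.79 (SE 0.063) and RAB8A falling by 0.44 (SE 0.048). Kinesins and dyneins, the motors that walk on microtubules, were higher in 19 and lower in 4 of 50. The dynein heavy chain DYNC1H1 had 969.8 and 964 CPM, against 702 and 728 CPM in control cells, without overlap. Endosome sorting genes were higher in 15 and lower in 6 of 44, among them the early endosome tether EEA1 with 0.38.

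Export from the endoplasmic reticulum leaned the other way. Of 42 tested genes, 8 rose and 19 fell, and 7 rose and 22 fell with the GC trend taken out. ERGIC1, a cargo protein of the compartment between the endoplasmic reticulum and the Golgi, had 474 and 488 CPM in knockdown cells, against 649.8 and 655 CPM in control cells, and the cargo receptor LMAN1 had 339 and 339.5 CPM, against 429.8 and 426 CPM in control cells. Neither overlapped, and both fell, by 0.44 and 0.34. Outside that list, ARF1, the GTPase that recruits the COPI coat to the Golgi, had 391.99 and 396 CPM in knockdown cells, against 702 and 699 CPM in control cells. It fell by 0.83 on the log2 scale (SE 0.021), with no overlap, and was singled out after its values were seen. The list that holds ARF1, COPI coat and Golgi tethers, did not lean, with 14 higher (31.8%) and 15 lower (34.1%) of 44.

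Of the Hippo pathway, in which STK3, STK4 and SAV1 act on LATS kinases to keep YAP1 out of the nucleus, 14 genes rose and 2 fell of 27 tested, with a median of 0.18. The effector YAP1 had 241 and 237 CPM in knockdown cells, against 151 and 149.9 CPM in control cells, without overlap, and rose by 0.67 (SE 0.029). The inhibitory kinases and their scaffold rose too, with STK4 at 0.47, STK3 at 0.39, SAV1 at 0.39 and LATS1 at 0.37. WWC1 and MOB1A, which help to activate LATS, each fell by 0.27. Among targets of YAP1, CRIM1 and AMOTL2 rose by 0.44 and 0.40, while CYR61 had 0.22 and was not called. With the GC trend taken out the counts were again 14 and 2.

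Eph receptors, which read ephrins on neighbouring cells, were led by 3 of the A type. EPHA7 had 10.04 and 10.9 CPM in knockdown cells, against 1.77 and 2.02 CPM in control cells, EPHA5 had 3.89 and 4.26 CPM, against 0.316 and 0.882 CPM in control cells, and EPHA3 had 58.3 and 53.7 CPM, against 26.5 and 29.7 CPM in control cells. The groups stood apart in all 3, with rises of 2.46 (SE 0.18), 2.75 (SE 0.31) and 1.00 (SE 0.06). Of 19 tested ephrins and receptors, 7 rose and 1 fell, and 10 rose and 0 fell with the GC trend taken out. The ligand EFNA5, the most abundant member per length, had 0.039 and was not called.

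Neuronal and synaptic genes were higher in 19 and lower in 7 of 54 tested. GRIK2, a kainate receptor subunit, had 2.82 and 2.92 CPM in knockdown cells, against 0.821 and 0.63 CPM in control cells, and NLGN1, a synaptic adhesion protein, had 4.23 and 4.13 CPM, against 1.52 and 1.57 CPM in control cells. The groups did not overlap, and both rose, by 1.97 (SE 0.32) and 1.43 (SE 0.23). CNTNAP1 and CNTNAP2, adhesion proteins of myelinated axons, fell by 0.91 and 0.76. A longer list of neuroendocrine genes had 3 higher and 3 lower of 13 tested and summed to 607 and 622 CPM in knockdown cells, against 532 and 535 CPM in control cells. In it, DDC, which makes dopamine and serotonin from their precursors, had 77.3 and 81.1 CPM in knockdown cells, against 36.9 and 37.4 CPM in control cells, and rose by 1.09 (SE 0.052), while VGF, a secreted neuropeptide precursor, had 1.52 and 1.78 CPM, against 5.05 and 4.66 CPM in control cells, and fell by 1.56 (SE 0.23).

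Tubulins and microtubule regulators were split, with 19 higher and 13 lower of 59. MAP2, a dendritic microtubule protein, had 27.9 and 26.5 CPM in knockdown cells, against 5.62 and 5.67 CPM in control cells, and the tubulin gene TUBA1A had 33.8 and 32.3 CPM, against 13.3 and 13.98 CPM in control cells. TBCA, a chaperone for beta-tubulin, had 61.6 and 57.3 CPM in knockdown cells, against 118 and 111 CPM in control cells. All 3 stood apart between the lines, MAP2 and TUBA1A rising by 2.27 (SE 0.11) and 1.28 (SE 0.082) and TBCA falling by 0.95 (SE 0.046).

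Cyclic nucleotide signalling had 21 higher (40.4%) and 11 lower (21.2%) of 52, against 22.9% and 25.1% of all tested genes. With the GC trend taken out, 22 rose and 10 fell of 50. PKIB, an inhibitor of protein kinase A, had 48.7 and 51.3 CPM in knockdown cells, against 27.4 and 27.3 CPM in control cells, and rose by 0.87 (SE 0.063) without overlap, while the catalytic subunit gene PRKACB fell as given above. The kinase anchor AKAP12 rose by 0.74. Of the phosphodiesterases, which end the signal, PDE4B and PDE10A rose by 1.11 and 0.50, and PDE9A and PDE4A fell by 0.60 and 0.71.

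Lists of nucleotide synthesis and of several steps of RNA synthesis and handling were among those that leaned lower. Of 26 tested pyrimidine genes, 2 rose and 14 fell, with a median of -0.11, and 4 rose and 15 fell with the GC trend taken out. CAD, which carries out the opening steps of pyrimidine synthesis, had 75.04 and 72.9 CPM in knockdown cells, against 91.2 and 94.04 CPM in control cells, and DHODH, the mitochondrial enzyme of the next step, had 30.1 and 31.9 CPM, against 40.5 and 40.2 CPM in control cells. Neither overlapped, and they fell by 0.32 (SE 0.045) and 0.38 (SE 0.064). UMPS, which completes the pathway, fell by 0.23, the salvage kinases UCK2 and TK1 by 0.25 and 0.33, and thymidylate synthase TYMS by 0.29, a call that ended under DESeq2 (adjusted p = 0.0519) and without control replicate 2 (edgeR adjusted p = 0.0604). CMPK1, a kinase of pyrimidine monophosphates and the most abundant member per length, rose by 0.14.

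Purine genes were higher in 7 and lower in 16 of 44. PPAT, the committed step of purine synthesis, had 48.9 and 49.4 CPM in knockdown cells, against 85.9 and 81.1 CPM in control cells, without overlap, and fell by 0.77 (SE 0.05). Folate and one-carbon genes, which supply carbon units to both pathways, were higher in 3 and lower in 14 of 32, and in 4 and 15 of 31 with the GC trend taken out. SLC25A32, which carries folate into mitochondria, had 14.3 and 17.2 CPM in knockdown cells, against 24.6 and 26.5 CPM in control cells. MAT2A, which makes S-adenosylmethionine, the methyl donor of METTL3 and other methyltransferases, had 116 and 112 CPM, against 173 and 176 CPM in control cells. Both groups stood apart, and the falls were 0.71 (SE 0.087) and 0.61 (SE 0.034). AHCY, which clears the by-product of methyl transfer, rose by 0.14.

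RNA polymerases I and III, which make ribosomal and transfer RNA, were higher in 5 and lower in 19 of 40 tested genes, with a median of -0.13, and in 6 and 18 with the GC trend taken out. UBTF, the factor that opens ribosomal DNA for polymerase I, had 80.2 and 82.4 CPM in knockdown cells, against 111 and 107 CPM in control cells, and TAF1C, a subunit of its promoter selectivity factor, had 55.01 and 60.6 CPM, against 76.8 and 78.9 CPM in control cells. Both groups stood apart, with falls of 0.43 (SE 0.042) and 0.43 (SE 0.049). POLR1B and POLR1C fell by 0.32 and 0.40. BDP1, a part of the polymerase III initiation factor, had 691 and 672 CPM in knockdown cells, against 553 and 541 CPM in control cells, and rose by 0.32. The polymerase III subunit gene POLR3G rose by 0.39.

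**Figure D4:**
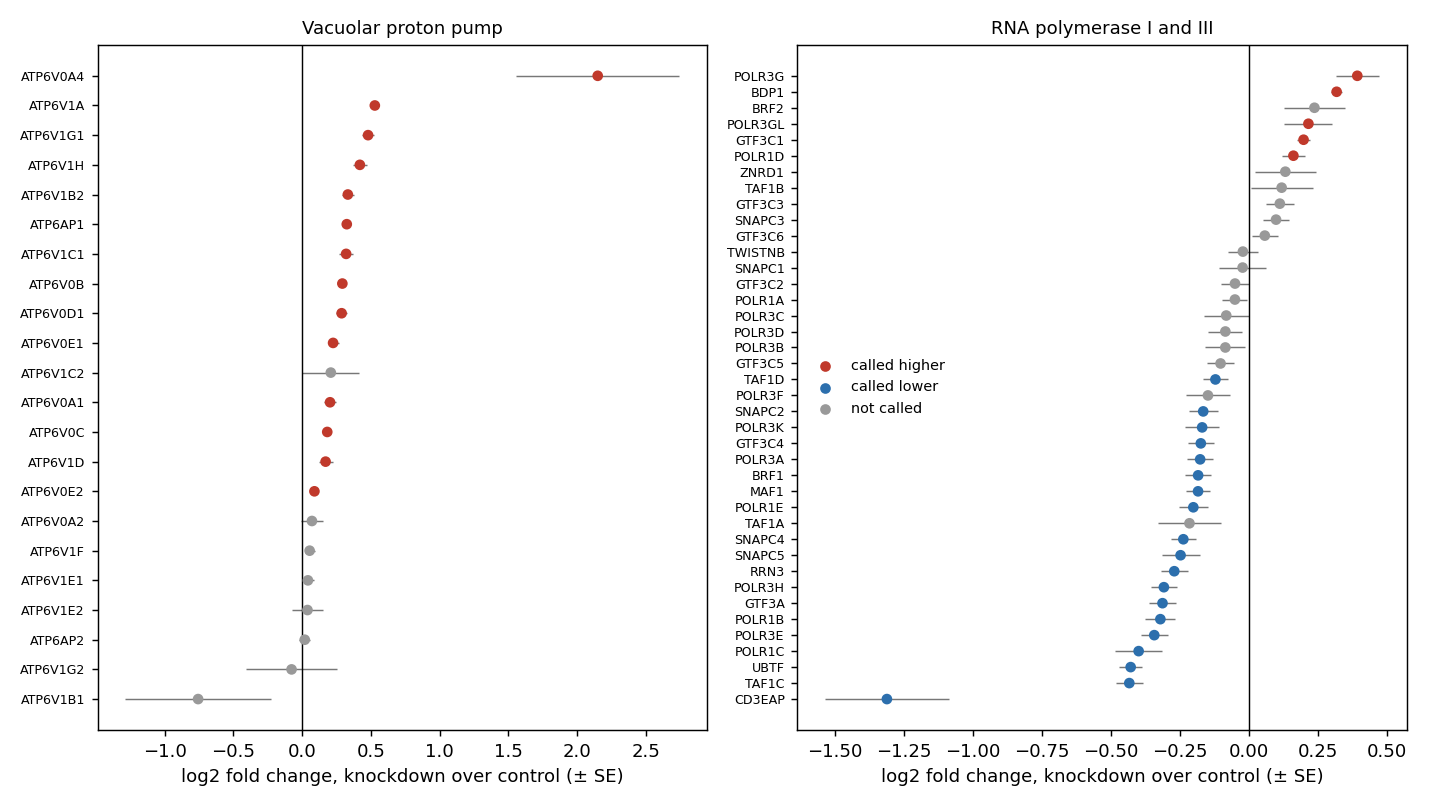
Vacuolar proton pump and RNA polymerase genes with opposite directions. Each point is a gene's log2 fold change, METTL3 knockdown over control, with its standard error as a line, coloured by its call; 14 of 22 pump genes were called higher and 0 lower, and 5 of 40 polymerase genes were called higher and 19 lower.

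Further lists of RNA handling leaned the same way, while Mediator, which joins transcription factors to RNA polymerase II, had 10 higher and 3 lower of 33. Transfer RNA modification genes were higher in 6 and lower in 25 of 61, DEAD and DEAH helicases, which unwind RNA, in 10 and 25 of 53, and nuclear pore and RNA export genes in 11 and 26 of 66. SEH1L, a scaffold protein of the pore, had 44.3 and 39.5 CPM in knockdown cells, against 63.5 and 63.3 CPM in control cells. The groups did not overlap, and the fall was 0.59 (SE 0.053). DHX33, a helicase with a role in ribosomal RNA synthesis, fell by 0.55, while DDX58, a sensor of viral RNA, rose by 0.56. The import receptor TNPO1 and the pore basket protein TPR rose by 0.37 and 0.22. With the GC trend taken out, the transfer RNA, helicase and pore lists gave 7 and 23, 9 and 25, and 7 and 32 higher and lower calls. Mediator then had 10 higher and 6 lower of 33.

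E2 enzymes, which pass ubiquitin on to its ligases, were higher in 4 and lower in 16 of 32, with UBE2S and UBE2C, partners of the anaphase-promoting complex, falling by 0.37 and 0.35. Genes for the upkeep and expression of mitochondrial DNA were higher in 7 and lower in 15 of 40, but in 10 and 10 among members with a mean of at least 10 CPM and in 8 and 10 with the length trend taken out. TWNK, the mitochondrial replicative helicase, had 21.6 and 22.4 CPM in knockdown cells, against 45.5 and 41.8 CPM in control cells, and PUS1, a pseudouridine synthase for mitochondrial and cytosolic RNA, had 25.6 and 24.6 CPM, against 41.2 and 40.9 CPM in control cells. Both stood apart, and they fell by 0.99 (SE 0.07) and 0.71 (SE 0.068). The translation factors of the mitochondrion GFM1 and GFM2 rose by 0.48 and 0.37.

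Small nucleolar RNAs, which guide the modification of ribosomal RNA and mostly lie in introns of host genes, were lower in 22 and higher in 1 of 102 tested, and 82 of the 102 had a log2 fold change under 0. The share lower was 21.6%, near the 25.1% of all tested genes, and the share higher was 0.98%, against 22.9% of all. The group was chosen after its values were seen. Their summed level was 126.8 and 120.9 CPM in knockdown cells, against 161.7 and 162.8 CPM in control cells, without overlap, and it was 133.5 and 130.1 CPM in the wild-type rescue and 122.9 and 127.0 CPM in the mutant rescue. The C/D class had 14 lower of 73 (19.2%) and the H/ACA class 8 lower of 29 (27.6%). A messenger RNA library holds these short transcripts only in part, since their median length was 86.5 bases and their median level 1.15 CPM, and reads of a host intron cannot be told apart from them.

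The list of mucins and trefoil factors and the TRP channels leaned lower, and the other channel families differed. Of 12 mucin and trefoil genes, 1 rose and 6 fell, with MUC6, a gel-forming mucin, at 1.75 and 2.16 CPM in knockdown cells, against 6.70 and 6.42 CPM in control cells. SPDEF, an ETS factor of luminal prostate and goblet cells that the list also holds, had 139 and 142 CPM, against 211 and 219 CPM in control cells. Neither overlapped, and they fell by 1.75 (SE 0.20) and 0.61 (SE 0.031). TRPM8, the cold-sensing channel that androgen induces in the prostate, had 17.9 and 18.6 CPM in knockdown cells, against 32.1 and 31.2 CPM in control cells, and fell by 0.79 (SE 0.078) without overlap, and 4 of 7 tested TRP channels fell and 0 rose. Potassium channels were higher in 5 and lower in 13 of 39, but in 6 and 7 with the GC trend taken out, and calcium and sodium channels were higher in 5 and lower in 2 of 18.

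Of basic helix-loop-helix factors, 3 rose and 10 fell of 20, and 3 rose and 7 fell with the GC trend taken out. TFAP4, a factor downstream of MYC, had 20.8 and 17.8 CPM in knockdown cells, against 39.4 and 39.7 CPM in control cells, and TFEB, which drives lysosomal genes, had 15.1 and 15.1 CPM, against 25.1 and 22.9 CPM in control cells. Both stood apart and fell, by 1.03 (SE 0.074) and 0.67 (SE 0.088), while TFE3, its relative, rose by 0.13, a call that ended without knockdown replicate 2 (edgeR adjusted p = 0.115). KLF and SP factors were higher in 4 and lower in 10 of 22, among them KLF15, a metabolic regulator, with a fall of 0.91.

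**Figure D5:**
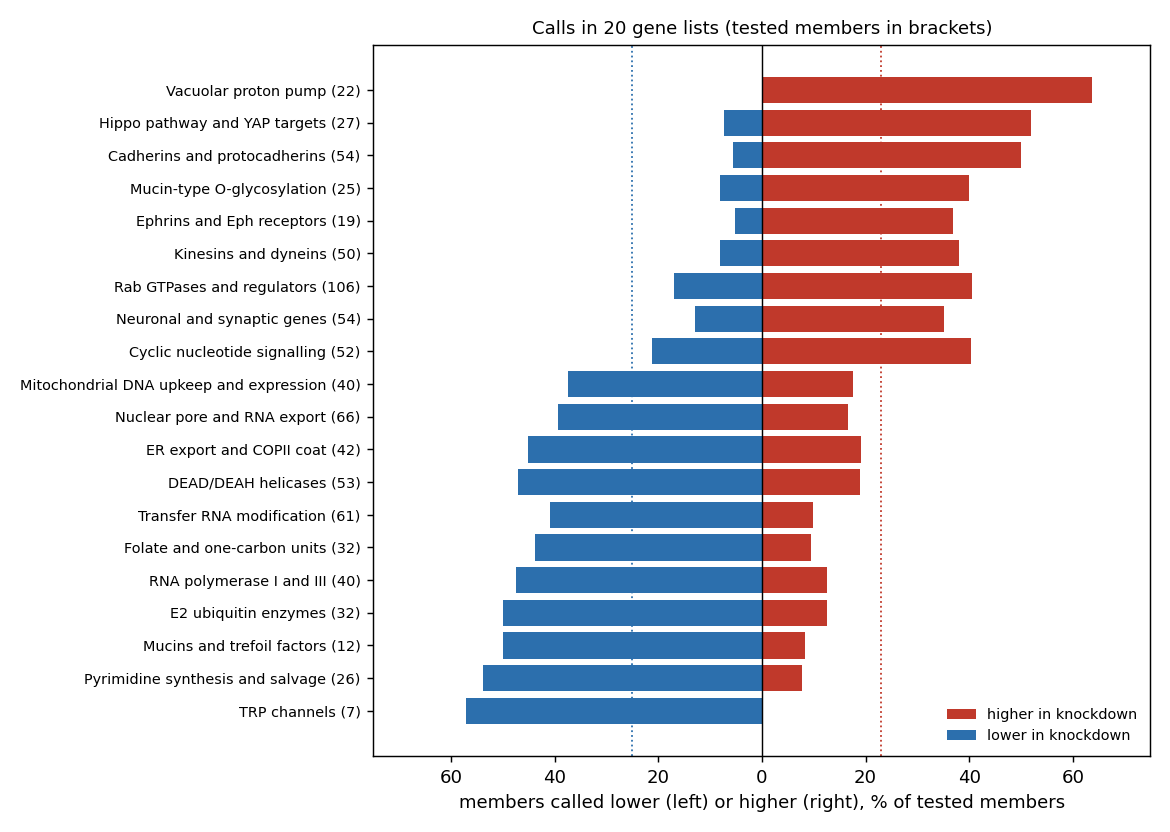
Counts of higher and lower calls in 20 gene lists. Bars to the right give the percentage of tested members called higher and bars to the left the percentage called lower in METTL3 knockdown against control cells, with dotted lines at the shares over all tested genes, 22.9% higher and 25.1% lower; the vacuolar proton pump has 14 higher and 0 lower of 22, and the pyrimidine list 2 higher and 14 lower of 26.

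Promoters of the genes with large differences were described by their letters, in both directions. A CpG content under 0.5 of that expected from base composition was found in 45.5% of the 231 promoters held for the 326 genes that at least doubled and in 55% of the 100 held for the 188 that at least halved, against 16.3% of 11109 promoters of tested genes. The letters TATAAA on either strand within 300 bases around the start site were found in 15.6% and 12% of them, against 5.85% of all, and TGANTCA, an AP-1 sequence, in 9.96% and 13%, against 4.76% of all. Genes with CpG-poor promoters also had low levels, with a median of 3.98 CPM where the CpG ratio was under 0.3 and 46.5 CPM where it was 0.9 or more, and the part of the level in these shares was not tested. The 3 stretches below show the letters in capitals, from RefSeq (GRCh38.p14, plus strand), near the start sites of 2 genes that rose, TMPRSS11E and the chemokine gene CCL20, and of S100P, a calcium-binding protein gene that fell.
TMPRSS11E at chr4:68447243-68447338: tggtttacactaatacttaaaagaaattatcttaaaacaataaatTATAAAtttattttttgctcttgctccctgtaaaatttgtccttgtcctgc
CCL20 at chr2:227813768-227813863: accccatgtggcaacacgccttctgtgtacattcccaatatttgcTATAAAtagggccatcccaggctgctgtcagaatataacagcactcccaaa
S100P at chr4:6693805-6693900: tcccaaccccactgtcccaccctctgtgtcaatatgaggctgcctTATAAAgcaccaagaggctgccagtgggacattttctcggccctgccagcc

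The letters begin 29 bases before the start site in CCL20 and 28 bases before it in S100P, the distance usual for a TATA box, and 175 bases before it in TMPRSS11E. S100P had 9.03 and 8.64 CPM in knockdown cells, against 24.6 and 23.1 CPM in control cells, without overlap, and fell by 1.43 (SE 0.10). CCL20 had 50.2 and 51.9 CPM in knockdown cells, against 8.84 and 8.38 CPM in control cells, also without overlap.

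Levels in the rescue lines, which carry the same METTL3 hairpin, are given for a few of these genes without a test. METTL3 averaged 317 CPM in the wild-type rescue and 334 CPM in the mutant rescue. YAP1 averaged 211 and 192 CPM, ATP6V1A 269 and 244 CPM, and UGT2B17 59.01 and 38.8 CPM, each between the levels of the knockdown and control libraries. PPAT averaged 45.6 and 44.8 CPM, TWNK 21.3 and 15.02 CPM, TBCA 63.7 and 56.7 CPM, and MAT2A 104 and 98.8 CPM. For these 4 genes the averages of both rescue lines lay nearer to the knockdown libraries than to the control libraries. Those of PPAT, TWNK and MAT2A lay below the knockdown libraries. YAP1, ATP6V1A and UGT2B17 lay nearer to the knockdown libraries in the wild-type rescue. In the mutant rescue UGT2B17 lay nearer to the control libraries, while YAP1 and ATP6V1A lay about midway between the lines. METTL3 was above the control level in both rescues, and what set the levels in the rescue lines was not tested.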

How the data were processed

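RNA of 4 stable LNCaP lines was sequenced in 8 libraries, 2 per line; per the labels' protocols, total RNA was extracted with TRIzol and libraries were made with a KAPA stranded messenger RNA kit. The deposited table gives raw counts per gene and library, and the authors' column of gene length in bases, a measure of other kind. CASAVA, STAR 2.5.2b and featureCounts, with DESeq2 and the build hg19, are named without parameters in the submitters' processing notes, so whether counting used strand, and how it treated reads that match several genes, is not given in the sources used here. Depth was 15684881 to 17582518 counts per library compared, and, with no molecular identifiers, reads may repeat a molecule. All per-sample columns were matched to samples by title, and 0 were left over.

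The counts were fitted in edgeR 4.0.16 (R 4.3.3) after filterByExpr (minimum count 10, minimum total 15) and TMM scaling. A quasi-likelihood model with 1 mean per line and robust dispersion was fitted to all 8 libraries, so that the lines share an estimate of spread. Knockdown minus control was tested two-sided, with Benjamini-Hochberg adjustment over 15289 genes and a threshold of 0.05. The size of a log2 fold change over the square root of its F gives the standard error. With 2 libraries against 2, an exact permutation test cannot go below p = 0.333. Alternatives were DESeq2 1.42.0 size factors, its Wald test, no filter, a mean of at least 10 CPM, only the 4 libraries, a replicate block, leaving out single libraries, and the length trend removed by lowess (span 0.3). A GC trend removed in the same way, neighbour runs, promoter letters and small nucleolar RNAs were added after seeing the data. GC content came from GENCODE v29 transcripts and gene order and promoters from RefSeq (GRCh38.p14), matched by symbol, with Python 3.11.15 and pandas 2.3.3; no coordinates of the deposited genes are given. Only the edgeR fit was tried on simulated counts, with 1 common dispersion, no GC trend and 200 genes changed. It called 176 of these 200 genes, and 11 unchanged genes, among 15101 tested.

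Gene lists (77) and families (41) and the genes followed were chosen with earlier results of these data known. The naming rule took METTL3, the 15 largest rises and falls and the 10 largest gains and losses in CPM among called, non-overlapping genes averaging 5 CPM or more, and per list the 3 largest rises and falls with a mean of at least 1 CPM and the most abundant member per length. Not every gene that meets it is named. Other members named, such as steps of a pathway, members of neighbour runs and genes with a printed promoter, were chosen after their values were seen. Y-linked genes are not named.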

Additional observations from a re-analysis of the deposited data

How the results depend on the processing

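Of the 138 genes named, 133 were called, and 101 to 133 of these kept call and direction under each alternative, the lowest number among genes averaging 10 CPM or more, where fewer genes were tested. SLC12A9 changed sign, to 0.023, with the GC trend taken out. Under DESeq2's Wald test 8 of the named genes lost their call, and not each of these is marked above. Lists with more higher than lower calls numbered 58, and 55 to 65 under the alternatives. Higher calls stayed within 1.5 times of 3506. Lower calls numbered 3831, and 2473 with DESeq2's Wald test. Calls with at least a doubling or halving numbered 514, against 329 with DESeq2's Wald test, whose cause was not tested, and 59 among genes averaging 10 CPM or more, where fewer genes were tested. With the GC trend taken out there were 3437 higher and 3369 lower calls, against 3253 and 3555 for the genes with a GC value without that step. Leaving out 1 library in turn gave 2869 to 3028 higher calls, 3092 to 3309 lower calls, 465 to 523 calls with at least a doubling or halving, and METTL3 differences of -1.385 to -1.126; the remaining library of that line was then assumed to vary like the others.

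Deviations of same-numbered knockdown and control libraries correlated with r = 0.0133, so the numbers are not taken as pairs. With the replicate number as a block, there were 3518 higher calls and 3851 lower calls, and no named gene changed its call. Depth limits genes at a few counts per library, such as the alpha protocadherins, none of which could be tested singly, and the small nucleolar RNAs.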

Other observations

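Mucin-type O-glycosylation genes, which add sugars to serine and threonine in the Golgi, were higher in 10 and lower in 2 of 25 tested, and in 9 and 2 with the GC trend taken out. GALNT7, which extends sugars already started, had 279 and 273 CPM in knockdown cells, against 173 and 173 CPM in control cells, and C1GALT1, which makes the core 1 structure, had 23.02 and 23.8 CPM, against 16.9 and 15.1 CPM in control cells. The groups did not overlap, and both rose, by 0.67 (SE 0.028) and 0.55 (SE 0.086). ST6GALNAC1, which caps the first sugar with sialic acid, fell by 0.58.

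Antigen presentation genes were higher in 14 and lower in 4 of 38. The class II genes HLA-DMB and HLA-DRA rose by 0.47 and 0.61, while B2M, the light chain of class I, had 299 and 306 CPM in knockdown cells, against 357 and 356 CPM in control cells, without overlap, and fell by 0.24 (SE 0.025). The class II chaperone CD74 fell by 1.00, a call that ended without control replicate 1 (edgeR adjusted p = 0.0742). The leukocyte markers, whose T-cell gene CD3E was at 0, summed to 18.2 and 18.7 CPM in knockdown cells, against 26.6 and 23.8 CPM in control cells, and their part in the result was not tested.

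Genes of the citric acid cycle and its entry points were higher in 21 and lower in 14 of 44. GLUD1, which passes glutamate on to the cycle, had 82.3 and 84.00 CPM in knockdown cells, against 126 and 120.1 CPM in control cells. There was no overlap between the groups, and GLUD1 fell by 0.57 (SE 0.04). Reads of GLUD1 can be shared with its close copies, so its fall is uncertain.

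Nuclear receptors other than the androgen receptor, with their cofactors, were higher in 14 and lower in 9 of 35. NR2F1, an orphan receptor known from neural development, had 5.53 and 6.67 CPM in knockdown cells, against 1.58 and 1.45 CPM in control cells, and rose by 1.998 (SE 0.21). The coactivator NCOA3 had 101 and 107 CPM, against 65.5 and 64.9 CPM in control cells, and the cofactor NCOA5 had 21.8 and 19.5 CPM, against 39.9 and 38.4 CPM in control cells. None of the 3 overlapped between the lines, NCOA3 rising by 0.67 and NCOA5 falling by 0.92. PLA2G4A, which frees arachidonic acid from membranes, had 24.7 and 23.2 CPM in knockdown cells, against 8.59 and 7.12 CPM in control cells, and rose by 1.61 (SE 0.10) in a list of glycerophospholipid genes that otherwise leaned lower, with 11 higher and 25 lower of 62.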
